A study of Mus musculus with 18 samples.

Results

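The RNA of facilitative glucose transporters and of the proteins that set their place in the cell was followed through age in mouse muscle. Only RNA was measured, so protein amounts and their place in the cell were not seen. The set holds 9 genes: the transporters Slc2a1, Slc2a3, Slc2a4 and Slc2a12, the traffic regulators Tbc1d1 and Tbc1d4, the insulin receptor Insr, its substrate Irs1, and Txnip. Members were taken by gene symbol, and a gene was measured where a probeset was annotated to that symbol alone. This gave 8 of the 9 genes, 1 probeset each, among 13255 genes with such a probeset; Tbc1d4 had none and was not analysed here. The muscle was the gastrocnemius of both legs of male C57BL/6 mice, with treatment given as not applicable, snap frozen and profiled at 2, 11 and 25 months of age on 6 Affymetrix whole-transcript arrays per age. The samples of an age are called biological replicates in the labels, which name no animals, so p-values measure the spread between these samples. Whole muscle was extracted, so fewer cells of a type and less RNA per cell cannot be told apart.

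Proteins of the Slc2 family, also called GLUTs, let glucose cross membranes down its gradient. GLUT4, the product of Slc2a4, is the insulin- and contraction-responsive carrier of muscle and fat: at rest it is held in intracellular vesicles, and insulin, acting through its receptor, IRS proteins and the kinase Akt, sends those vesicles to the surface. Tbc1d4 and Tbc1d1 encode Rab GTPase-activating proteins that hold the vesicles back until Akt or AMP-activated protein kinase phosphorylates them. GLUT1 and GLUT3, from Slc2a1 and Slc2a3, sit largely at the cell surface, while GLUT12, from Slc2a12, is a further carrier found in muscle and fat. Txnip encodes an arrestin-like protein that binds thioredoxin and removes GLUT1 and GLUT4 from the surface, and its gene is switched on by glucose.

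Promoter sequence is shown for 3 members, because these stand for a rise (Slc2a1), a fall (Irs1) and a gene with no call at any age (Txnip) in the results that follow. Each is the 250 bases before the annotated start in RefSeq on GRCm38.p6, written 5′ to 3′ on the strand of the gene, and capitals mark motif matches on either strand. The Slc2a1 window lies at chr4:119108495-119108744 (plus strand), that of Irs1 at chr1:82291440-82291689 (minus strand) and that of Txnip at chr3:96557707-96557956 (plus strand).
Slc2a1: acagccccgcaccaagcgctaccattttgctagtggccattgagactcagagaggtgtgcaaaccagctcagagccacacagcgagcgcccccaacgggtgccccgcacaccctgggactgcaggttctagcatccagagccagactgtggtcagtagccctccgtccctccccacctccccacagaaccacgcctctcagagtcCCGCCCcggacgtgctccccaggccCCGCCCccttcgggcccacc
Irs1: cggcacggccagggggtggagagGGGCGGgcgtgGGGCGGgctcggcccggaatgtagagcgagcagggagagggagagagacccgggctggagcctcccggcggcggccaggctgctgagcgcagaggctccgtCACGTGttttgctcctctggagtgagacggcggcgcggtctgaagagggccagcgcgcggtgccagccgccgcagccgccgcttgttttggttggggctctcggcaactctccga
Txnip: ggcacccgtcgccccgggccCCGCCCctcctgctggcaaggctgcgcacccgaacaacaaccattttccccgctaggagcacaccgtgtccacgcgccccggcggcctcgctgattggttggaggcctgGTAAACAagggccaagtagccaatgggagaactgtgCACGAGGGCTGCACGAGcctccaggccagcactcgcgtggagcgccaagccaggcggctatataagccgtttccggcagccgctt

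The motifs searched were the GC box GGGCGG, the E-box CACGTG, the FoxO motif GTAAACA, the MEF2 core (CTA and TAG with 4 bases between), the TATA motif TATAAA and 2 copies of CACGAG with 5 bases between them, the paired element through which glucose acts on Txnip. Among all 32851 promoter windows of this length, 32.7% held a GC box, 6.02% an E-box, 3.17% a FoxO motif, 3.20% a MEF2 core and 12.4% a TATA motif. The Slc2a1 window held 2 GC boxes. That of Irs1 held 2 GC boxes and an E-box that began at position -115 from the start. The Txnip window held a GC box, a FoxO motif and the paired element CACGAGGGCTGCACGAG, which began at position -85. It was the only 1 of the 32851 windows with that pair, whose spelling was taken from this gene, so its rarity is no finding. Promoter windows for 6 of the 9 members were in the table used, and the matches are descriptions of letters.

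All values below are log2 of the deposited intensity, and each change is the later minus the earlier age from limma, fitted to all 15300 probesets with Benjamini-Hochberg adjustment over all of them; called means an adjusted p under 0.05. Array medians lay between 97.6 and 101 intensity units. Arrays correlated across probesets with r of 0.987 to 0.996 within ages. The signal range of an array (the interquartile range of its log2 values) had a mean of 2.19 ± 0.11 in the 2-month arrays, 2.33 ± 0.08 in those of 11 months and 2.26 ± 0.08 in those of 25 months (SD, 6 arrays each). All 10 measured fast-fibre markers were among the brightest 25% of probesets, and the lowest of all values was 18.4 intensity units.

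Between 11 and 2 months, 4 of the 8 measured genes changed: Slc2a3, Slc2a1 and Tbc1d1 rose and Irs1 fell. Over all probesets 19.1% were called in this comparison (11.9% higher, 7.18% lower). At an unadjusted p under 0.05 stood 6 of the 8 genes, against 35.8% of all probesets. The split of all calls was 1820 higher and 1099 lower, and 1328 and 1214 after a further quantile normalization. None of the 8 was called between 25 and 11 months by limma, where 0.150% of all probesets were (0.0588% higher, 0.0915% lower). Slc2a4 alone had an unadjusted p under 0.05, against 10.4% of all probesets, and 0 of the 8 had arrays of these ages that did not overlap, against 1.12% of all probesets. That split was 9 higher and 14 lower as reported, 11 and 9 after quantile normalization and 9 and 7 after median centring. For 25 against 2 months 4 of 8 were called, Slc2a3 and Slc2a1 higher and Irs1 and Slc2a12 lower, against 17.4% of all probesets (10.5% higher, 6.95% lower). At an unadjusted p under 0.05 stood 6 of the 8, against 30.0% of all probesets. The comparisons with 2 months share the same 6 young arrays. The 8 genes had a median change of 0.15 for 11 against 2 months, where all probesets had -0.02. For 25 against 11 months the medians were -0.11 for the 8 genes and 0.002 for all probesets, and for 25 against 2 months 0.07 and -0.01.

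**Figure D1:**
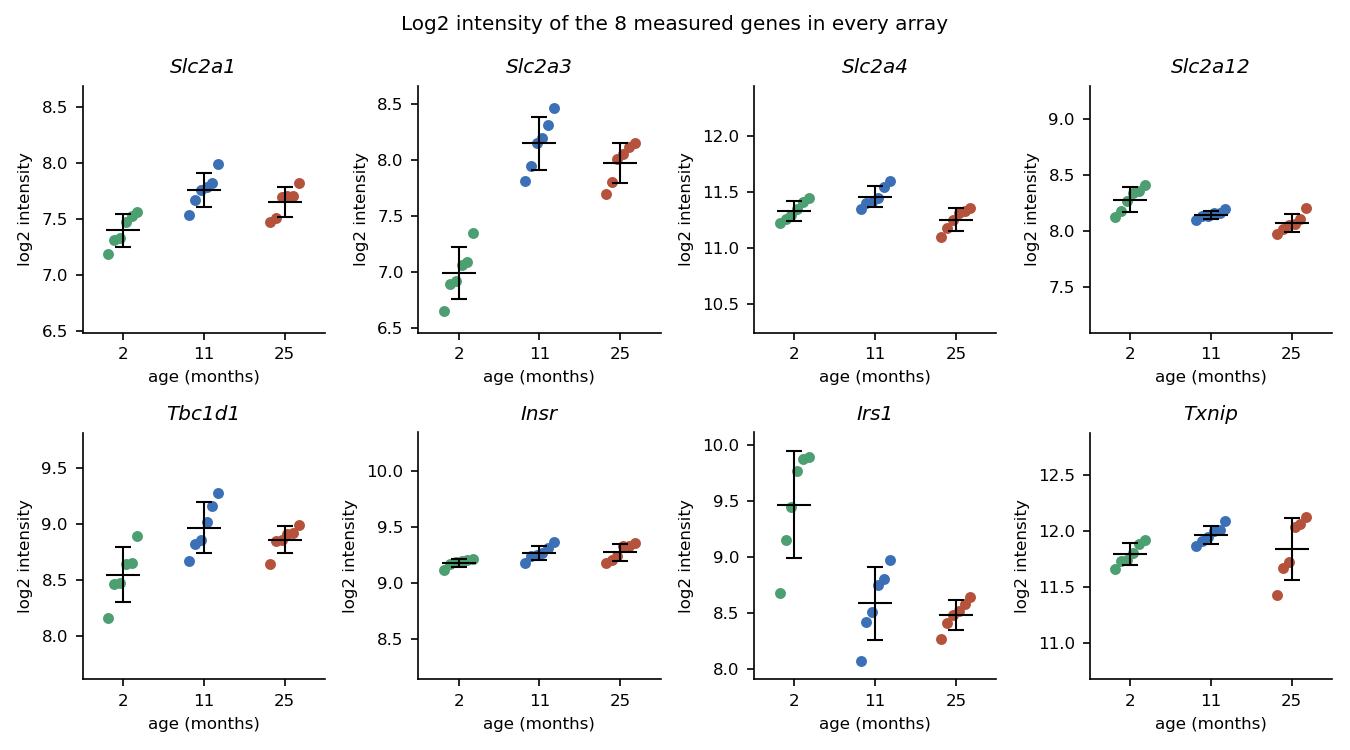
Log2 intensity (vertical axis, each panel spanning the same number of log2 units) of the 8 measured genes by age in months (horizontal axis). Points are single arrays in order of value and black marks are means ± SD over 6 arrays; the 2-month arrays of Slc2a3 lie between 6.65 and 7.34, below every older array, and those of Irs1 reach 9.89.

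Slc2a3, which encodes the high-affinity carrier GLUT3 best known from neurons, moved furthest among the transporters. Its log2 intensity was lowest at 6.65, had a median of 6.99 and was highest at 7.34 in the 2-month arrays. At 11 months the lowest, median and highest arrays read 7.82, 8.18 and 8.47, and at 25 months 7.70, 8.03 and 8.15. Every array of either older age thus lay above every young array, while the 11- and 25-month arrays overlapped. In linear intensity units the median array read 127 at 2 months, 289 at 11 months and 261 at 25 months.

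The mean of Slc2a3 was 8.15 ± 0.24 at 11 months, against 7.00 ± 0.23 at 2 months (SD, n = 6 each), a change of 1.15 ± 0.11 (SE), or 2.23-fold (limma adjusted p = 2.51e-06). Only 0.131% of all probesets moved at least as far in either direction in that comparison. Non-overlapping arrays were seen for 6.42% of probesets. At 25 months the mean was 7.97 ± 0.18, a change of 0.98 ± 0.11 (SE) against 2 months (limma adjusted p = 5.72e-06). Against 11 months it differed by -0.18, with a 95% interval of -0.41 to 0.06 (limma adjusted p = 0.612). No alternative ended the calls of Slc2a3 against 2 months: the adjusted p reached 1.58e-04 at most for 11 months and 9.82e-05 for 25 months.

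Slc2a1 encodes GLUT1, the carrier that supplies basal uptake in many cells, endothelium included. Its arrays ran from 7.19 through a median of 7.40 to 7.56 at 2 months, from 7.53 through 7.77 to 7.99 at 11 months, and from 7.47 through 7.70 to 7.82 at 25 months. The ages overlapped, though 5 of the 6 arrays of 11 months and 4 of the 6 of 25 months lay above the highest young array. The mean was 7.76 ± 0.15 at 11 months, against 7.40 ± 0.15 at 2 months (SD, n = 6 each), a change of 0.36 ± 0.08 (SE), or 1.28-fold (limma adjusted p = 0.00397). At 25 months it was 7.65 ± 0.13, which was 0.25 ± 0.08 (SE) above 2 months (limma adjusted p = 0.0300).

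The 2 rises of Slc2a1 were unequally firm. The one at 11 months passed in all alternatives, with an adjusted p of at most 0.0402 (with the signal range as a covariate). The one at 25 months lost its call once the signal range entered the model (limma adjusted p = 0.0540) and on leaving out any of 7 arrays: 2 months replicate 2, 5 or 6, or 25 months replicate 1, 2, 4 or 5 (limma adjusted p of 0.0504 to 0.0798, with changes of 0.21 to 0.24). At a threshold of 0.01 the rise at 25 months was not called either. Slc2a1 at 25 months differed from 11 months by -0.11, with a 95% interval of -0.27 to 0.06.

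Slc2a4, the gene of GLUT4, had no call between any pair of ages. Its arrays read 11.22, 11.32 and 11.44 (lowest, median, highest) at 2 months, 11.35, 11.43 and 11.60 at 11 months, and 11.09, 11.28 and 11.36 at 25 months. Of the aged arrays 5 of 6 lay below every 11-month array, and the highest aged array overlapped with the lowest of 11 months. Its mean was 11.25 ± 0.10 at 25 months, against 11.46 ± 0.09 at 11 months (SD, n = 6 each), a difference of -0.20 ± 0.06 (SE) that did not pass (unadjusted p = 0.00197, limma adjusted p = 0.175). The methods' one-way test with Tukey called it, as did limma with array weights (limma adjusted p = 0.0372). In the moderated F test of the 3 ages together Slc2a4 was called (limma adjusted p = 0.0392), a call that was lost in 12 of the alternatives.

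Against 2 months, Slc2a4 differed by 0.13 at 11 months (95% interval 0.01 to 0.25, limma adjusted p = 0.119) and by -0.08 at 25 months (95% interval -0.20 to 0.04, limma adjusted p = 0.394). Between them these intervals run from -0.20 to 0.25 log2 units. Slc2a4 was 1 of 6 members whose probesets were among the brightest 25%, all but Slc2a1 and Slc2a3. The median change of that brightest 25% was 0.09 at 11 against 2 months, -0.03 at 25 against 11 months and 0.07 at 25 against 2 months. Its part in the values of Slc2a4 was not tested.

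Slc2a12, the gene of GLUT12, was the only 1 of the 4 measured transporters of the set called lower in any comparison. The arrays read 8.12, 8.30 and 8.41 (lowest, median, highest) at 2 months, 8.09, 8.15 and 8.20 at 11 months, and 7.97, 8.06 and 8.20 at 25 months. Of the aged arrays, 5 of 6 lay below every young array, and the groups overlapped through the remaining 1. The mean was 8.07 ± 0.08 at 25 months, against 8.28 ± 0.11 at 2 months (SD, n = 6 each), a change of -0.21 ± 0.05 (SE; limma adjusted p = 0.00732). At 11 months the difference from 2 months was -0.13 ± 0.05 (SE; limma adjusted p = 0.0746). That value passed with quantile-normalized values (-0.22, limma adjusted p = 0.00300), with a signal range term (-0.19, limma adjusted p = 0.0439), without 2 months replicate 4 (-0.17, limma adjusted p = 0.0309) and by the one-way test with Tukey.

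Tbc1d1 encodes the Rab GTPase-activating protein that predominates over Tbc1d4 in fast glycolytic mouse muscle. Its arrays read 8.16, 8.56 and 8.89 (lowest, median, highest) at 2 months, 8.67, 8.94 and 9.27 at 11 months, and 8.64, 8.88 and 8.99 at 25 months. The ages overlapped, with 3 of 6 arrays of each older age above every young one. The mean was 8.96 ± 0.23 at 11 months, against 8.54 ± 0.25 at 2 months (SD, n = 6 each), a change of 0.42 ± 0.11 (SE), or 1.34-fold (limma adjusted p = 0.0106). With the signal range as a covariate it was 0.33 and did not pass (limma adjusted p = 0.146). The change also did not pass at a threshold of 0.01. At 25 months the difference from 2 months was 0.31 ± 0.11 (SE) and lay at the threshold (limma adjusted p = 0.0502). It was called in 12 alternatives, 5 of which left out 1 array (2 months replicate 1, 11 months replicates 3, 4 and 5, and 25 months replicate 1), with a lowest adjusted p of 0.0135.

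**Figure D2:**
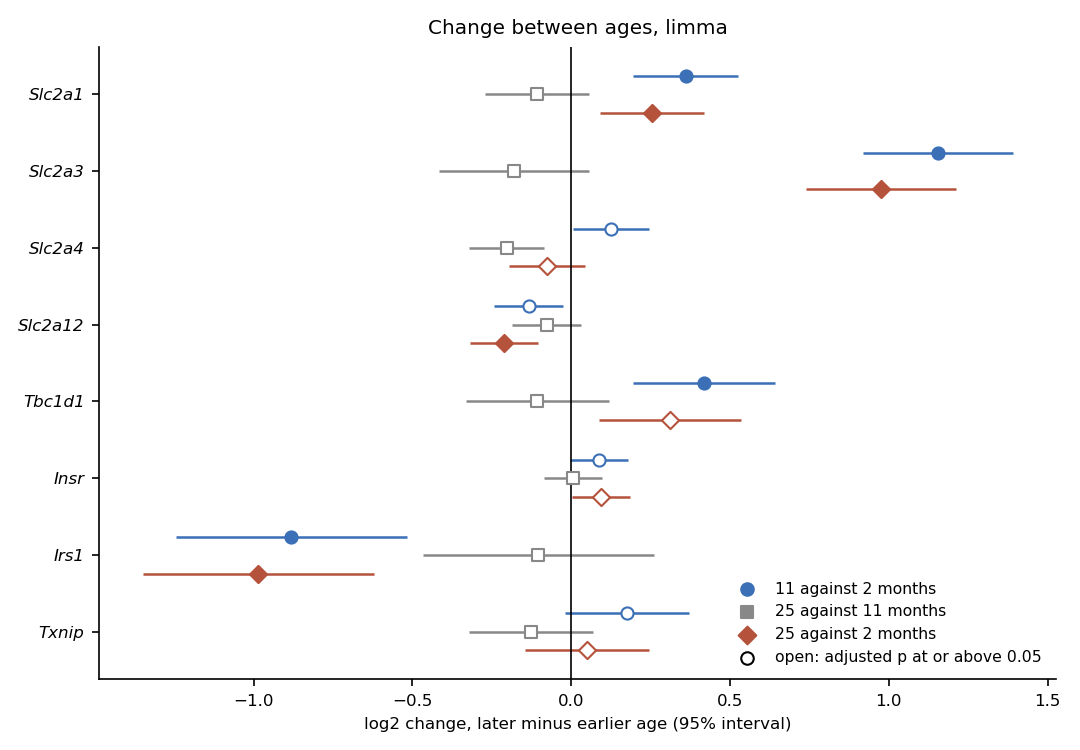
Log2 change of the 8 measured genes (horizontal axis, later minus earlier age) with 95% intervals from limma, for the 3 pairs of ages. Filled markers are called and open markers are not; Slc2a3 and Irs1 stand farthest from 0 against 2 months, at 1.15 and -0.88 for 11 months and 0.98 and -0.98 for 25 months, and all markers of 25 against 11 months are open.

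Irs1, the docking protein that links the insulin and IGF receptors to phosphoinositide 3-kinase, fell. At 2 months its arrays read 8.67, 9.61 and 9.89 (lowest, median, highest), at 11 months 8.07, 8.63 and 8.97, and at 25 months 8.26, 8.50 and 8.64. All 6 aged arrays lay below the lowest young array, whereas 1 young array, replicate 3, fell among those of 11 months. Median linear intensity was 779 units at 2 months, 395 at 11 months and 361 at 25 months. Non-overlapping arrays were seen for 7.23% of probesets at 25 against 2 months.

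The mean of Irs1 was 8.58 ± 0.32 at 11 months, against 9.47 ± 0.48 at 2 months (SD, n = 6 each), a change of -0.88 ± 0.17 (SE), or 1.84-fold lower (limma adjusted p = 0.00198). At 25 months it was 8.48 ± 0.13, a change of -0.98 ± 0.17 (SE) against 2 months, or 1.98-fold lower (limma adjusted p = 5.50e-04). In that comparison 0.261% of all probesets moved at least as far. The value at 25 against 11 months was -0.10, with a 95% interval of -0.47 to 0.26. Leaving out single arrays gave changes of -1.04 to -0.78 at 11 months and -1.14 to -0.90 at 25 months, all called. Irs1 had the widest spread of the 8 genes at 2 months, with a range of 1.21 log2 units, and a range of 0.37 at 25 months; the difference in spread was not tested.

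Insr encodes the insulin receptor. Its arrays read 9.12, 9.19 and 9.21 (lowest, median, highest) at 2 months, 9.17, 9.26 and 9.36 at 11 months, and 9.17, 9.28 and 9.36 at 25 months. Insr was not called in any comparison: it differed from 2 months by 0.09 at 11 months (95% interval -0.004 to 0.18, limma adjusted p = 0.154) and by 0.09 at 25 months (95% interval 0.003 to 0.19, limma adjusted p = 0.154). These intervals hold changes of at most 0.19, well under those of Irs1. At each of the 3 ages replicates 1, 2 and 3 read above replicates 4, 5 and 6.

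Txnip was not called either, and it spread widely among the aged arrays. The arrays read 11.66, 11.78 and 11.92 (lowest, median, highest) at 2 months, 11.86, 11.97 and 12.09 at 11 months, and 11.43, 11.88 and 12.13 at 25 months. Its SD of 0.28 at 25 months stood beside 0.08 at 11 months and 0.10 at 2 months (6 arrays each), and the aged arrays held both the lowest and the highest value of the 18. Txnip differed from 2 months by 0.18 at 11 months (95% interval -0.02 to 0.37, limma adjusted p = 0.179) and by 0.05 at 25 months (95% interval -0.15 to 0.24, limma adjusted p = 0.767). For 25 against 11 months it was -0.13 (95% interval -0.32 to 0.07). Replicates 1, 2 and 3 read above replicates 4, 5 and 6 at 11 and at 25 months, and not at 2 months.

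The 3 ages together gave a limma call for 6 of the 8 genes by the moderated F statistic, against 19.2% of all probesets. The exceptions were Insr (limma adjusted p = 0.196) and Txnip (limma adjusted p = 0.322). Tbc1d1 (limma adjusted p = 0.0197) lost this call with quantile-normalized values (0.0614), with a signal range term (0.165) and without 2 months replicate 4 (0.0551).

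The lists that follow are given as counts called. Beside them stand 11.9% of all probesets higher and 7.18% lower at 11 against 2 months. The shares were 10.5% and 6.95% at 25 against 2 months, and 0.150% in either direction at 25 against 11 months. In the rest of the Slc2 family 1 gene was called. Of 5 further measured members, 0 rose and 0 fell at 11 against 2 months or at 25 against 11 months by limma, with 1 (Slc2a6, -0.15, limma adjusted p = 0.0639) and 0 of them at an unadjusted p under 0.05. At 25 against 2 months 1 fell, Slc2a10, the gene of GLUT10, at 5.78 ± 0.09 in 25-month muscle, against 6.06 ± 0.20 in 2-month muscle (SD, n = 6 each; limma adjusted p = 0.0169). For the other 4 (Slc2a2, Slc2a5, Slc2a6 and Slc2a8) the values in that comparison lay between -0.11 and -0.01, and the median of the 5 was -0.07. Slc2a2 and Slc2a5 were dim (means of 5.20 and 5.17 log2 units at 2 months), and whether they were detected was not tested.

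Genes of GLUT4 vesicle traffic moved in both directions. At 11 against 2 months 4 of 20 rose and 2 fell, with a median of 0.08. Those that rose were Aspscr1, the gene of the TUG tether that retains GLUT4 vesicles (0.29), the endosomal Rab genes Rab4a (0.28) and Rab13 (0.22), and Rac1, a GTPase of the actin branch of insulin action (0.22). Those that fell were Stx4a, the gene of the plasma membrane SNARE syntaxin 4 (-0.32), and the motor gene Myo1c (-0.20). At 25 against 2 months 4 rose and 4 fell, again with a median of 0.08: Rab4a (0.27), Aspscr1 (0.26), the vesicle SNARE Vamp2 (0.23) and Rac1 (0.23) were higher, and the exocyst gene Exoc7 (-0.29), Stx4a (-0.25), Stx16 (-0.19) and Myo1c (-0.17) lower. At 25 against 11 months 0 of 20 were called by limma and 2 had an unadjusted p under 0.05, of which Vamp8 had the smaller (-0.26, limma adjusted p = 0.272).

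**Figure D3:**
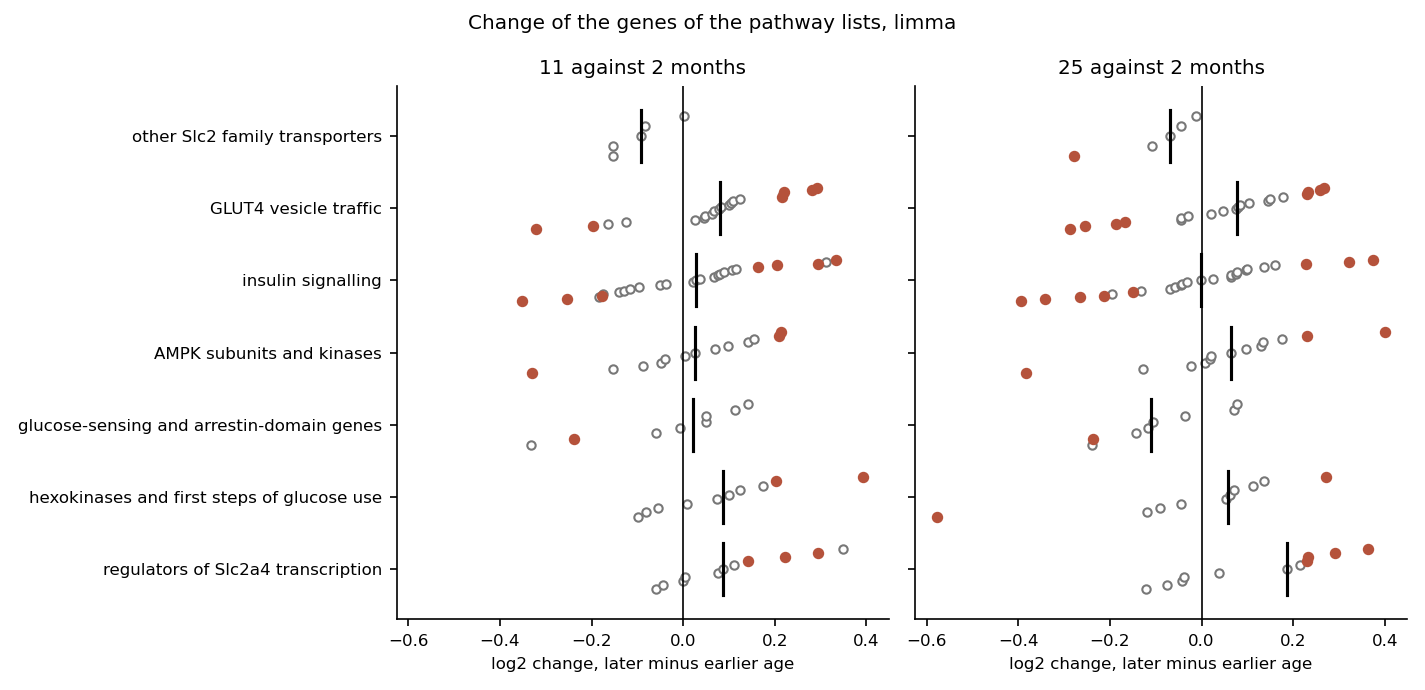
Log2 change (horizontal axis) of every measured gene of 7 pathway lists, for 11 against 2 months (left) and 25 against 2 months (right). Filled points are called by limma, open points are not, and black bars are list medians; called genes lie on both sides of 0 in the lists of GLUT4 vesicle traffic and insulin signalling.

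Insulin signalling genes beyond Insr and Irs1 were likewise divided, with 4 of 25 higher and 3 lower at 11 against 2 months and a median of 0.03. The catalytic kinase subunit Pik3cb (0.33), Rictor, a partner of mTOR in the complex that phosphorylates Akt (0.29), the glycogen synthase kinase Gsk3b (0.20) and Ptpn1, the gene of a phosphatase that acts on the insulin receptor (0.16), rose. The feedback inhibitor Socs3 (-0.35), Grb10, whose protein binds and restrains the insulin receptor (-0.25), and Pik3r2 (-0.18) fell. At 25 against 2 months 3 rose and 5 fell, with a median of -0.002: Rictor (0.37), Pik3cb (0.32) and Gsk3b (0.23) were higher, and Socs3 (-0.39), Grb10 (-0.34), Pik3ca (-0.27) and Ppp2r5b (-0.15) were among those lower. With the signal range as a covariate the count at 11 against 2 months was 2 higher and 2 lower. At 25 against 11 months 0 of 25 were called by limma and 1, Ppp2r5b, had an unadjusted p under 0.05 (-0.10, limma adjusted p = 0.442).

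Of 13 genes of AMP-activated protein kinase, the energy sensor that phosphorylates Tbc1d1, and of its regulators, 2 rose and 1 fell in each comparison with 2 months, with medians of 0.03 at 11 months and 0.06 at 25 months. Prkag3, the muscle-specific gamma subunit, rose by 0.21 at 11 months and 0.40 at 25 months, and Prkaa2, the main catalytic subunit of muscle, by 0.21 and 0.23. Camkk2, which encodes an upstream kinase, changed by -0.33 at 11 months and -0.38 at 25 months. Of all probesets, 19.1% were called at 11 against 2 months and 17.4% at 25 against 2 months. With the signal range as a covariate 0 rose and 1 fell at 11 against 2 months. At 25 against 11 months 0 were called by limma and 3 had an unadjusted p under 0.05, with Sesn3 the smallest (0.18, limma adjusted p = 0.176); with the signal range as a covariate Sesn3 was called higher.

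Among 11 measured regulators of Slc2a4 transcription, 3 rose and 0 fell at 11 against 2 months: the MEF2 genes Mef2a (0.29) and Mef2c (0.14), whose products activate the GLUT4 promoter, and Hdac5 (0.22), which encodes a repressor of MEF2. After quantile normalization 1 rose. At 25 against 2 months 4 rose and 0 fell, namely Mef2a (0.36), Mef2c (0.29), Hdac4 (0.23) and Hdac5 (0.23). The list's median was 0.09 at 11 months and 0.19 at 25 months. At 25 against 11 months 0 were called by limma and 3 had an unadjusted p under 0.05, with Mef2c the smallest (0.15, limma adjusted p = 0.197). Slc2a4 itself was not called in either comparison with 2 months.

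For the first steps of glucose use, 2 of 10 genes rose at 11 against 2 months, glycogen synthase Gys1 (0.39) and phosphofructokinase Pfkm (0.20), and the list's median was 0.09. At 25 against 2 months Gys1 rose (0.27) and Pdk4, which encodes an inhibitor of pyruvate dehydrogenase, fell (-0.58, SE 0.18, limma adjusted p = 0.0341). Of 8 genes around glucose sensing and Txnip, 1 fell in each comparison with 2 months, Mlxipl, the gene of the glucose-responsive factor ChREBP, by -0.24 at 11 months and -0.24 at 25 months, where the list's medians were 0.02 and -0.11. With the signal range as a covariate the fall of Mlxipl at 11 months was not called, and after quantile normalization 3 genes of this list fell at 25 against 2 months. At 25 against 11 months 0 of these 18 genes were called by limma, and 5 had an unadjusted p under 0.05, of which Gys1 (-0.12, limma adjusted p = 0.366) and Txn1 (-0.19, limma adjusted p = 0.272) had the smallest of their lists.

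Markers of other cells the muscle could hold moved only in part. Among all probesets 11.9% were called higher and 7.18% lower at 11 against 2 months, and 10.5% and 6.95% at 25 against 2 months. For endothelium, rich in GLUT1, 1 of 10 markers rose and 2 fell at 11 against 2 months and 0 rose and 4 fell at 25 against 2 months. Its summed intensity was 2843 to 3034 at 2 months, 2677 to 3118 at 11 months and 2563 to 2804 at 25 months. For red cells 0 of 3 markers rose and 1 fell at 11 against 2 months, with sums of 195 to 243 at 2 months, 177 to 214 at 11 months and 175 to 249 at 25 months. For macrophages 2 of 9 rose at 11 against 2 months (sums of 769 to 1126 at 2 months and 961 to 1139 at 11 months). Of the 9, 1 rose at 25 against 2 months, Cd68 (0.28, limma adjusted p = 0.0331), with sums of 920 to 1137 at 25 months. For neutrophils and platelets, which carry GLUT3, 1 of 6 rose at 11 against 2 months, the platelet gene Pf4 (0.52). The other genes of the list did not follow it: the list's median was -0.05, and only 2 of the 6 lay above 0. The platelet genes Itga2b (-0.17), Gp9 (-0.06) and Ppbp (-0.04) lay below 0 and were not called. Pf4 was not called at 25 against 2 months (0.25, limma adjusted p = 0.0620), and 1 other platelet gene, Ppbp, rose (0.25, limma adjusted p = 0.0146). The sums of that list were 322 to 372 at 2 months, 336 to 409 at 11 months and 349 to 384 at 25 months. Pf4, the brightest gene of the list by mean at every age, had the largest part in them.

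Adipocytes, which express Slc2a4, had 5 of 10 markers higher and 0 lower at 11 against 2 months. At 25 against 2 months 0 were higher and 1 was lower. At 25 against 11 months 0 were called by limma, and 7 had an unadjusted p under 0.05, all of them lower. The list's medians were 0.25 at 11 against 2 months, -0.29 at 25 against 11 months and 0.08 at 25 against 2 months. Sums were 9951 to 11186 at 2 months, 9276 to 13006 at 11 months and 10474 to 11656 at 25 months. They mostly follow Car3, the brightest marker of the list (mean 13.09 log2 units at 2 months), which was called in no comparison. Nerve and Schwann cell markers had 0 of 9 higher and 2 lower at 11 against 2 months, and 0 higher and 1 lower at 25 against 2 months. Their sums were 1297 to 1564 at 2 months, 1032 to 1435 at 11 months and 1001 to 1159 at 25 months. Most of the sum at 2 months came from Pmp22 (mean 9.82 log2 units), 1 of the 2 called lower at 11 against 2 months (-0.38). Slow-fibre genes had 0 of 7 called at 11 against 2 months, where 1 had an unadjusted p under 0.05, and 5 of 7 higher at 25 against 2 months. Fast-fibre genes had 0 of 10 higher and 3 lower at 11 against 2 months and 2 lower at 25 against 2 months, satellite cell markers 0 of 6 higher and 2 lower, then 1 lower, and fibro-adipogenic progenitor markers 1 of 8 higher and 2 lower, then 0 higher and 4 lower. Of those 8 progenitor markers 1 was called lower at 25 against 11 months, Dpt (-0.51, limma adjusted p = 0.0410), 7 had an unadjusted p under 0.05 and the median was -0.28, with sums of 6321 to 8147 at 25 months and 7722 to 9258 at 11 months. The slow-fibre sums were 5010 to 11882 at 2 months, 7459 to 11372 at 11 months and 8368 to 16203 at 25 months. Some markers were dim, such as S100a9 and Gp9 (means of 4.81 and 5.20 log2 units at 2 months), and whether they were detected was not tested. The part of these cells in the changes of Slc2a1, Slc2a3, Slc2a4 and Irs1 was not tested.

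The genes most like 4 of the members were ranked by Pearson's r over the 18 arrays among 12910 other genes, as a description in which age differences and array quality are shared by all genes. For Slc2a3 the closest were Nars, Klhl38 and Samd10, with r of 0.95 for each, and for the deviations from the age means r of 0.68, 0.67 and 0.70. For Slc2a1 they were Pgd (0.90), Gypc (0.89) and Traf2 (0.88), with 0.78, 0.75 and 0.77 for the deviations. For Slc2a4 they were Bap1 (0.92), Ntmt1 (0.86) and Slc26a6 (0.86), with 0.85, 0.75 and 0.73. For Txnip they were Mcrs1 (0.75), Inpp4b (0.74) and Degs1 (0.73), with 0.72, 0.74 and 0.69 for the deviations.

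**Figure D4:**
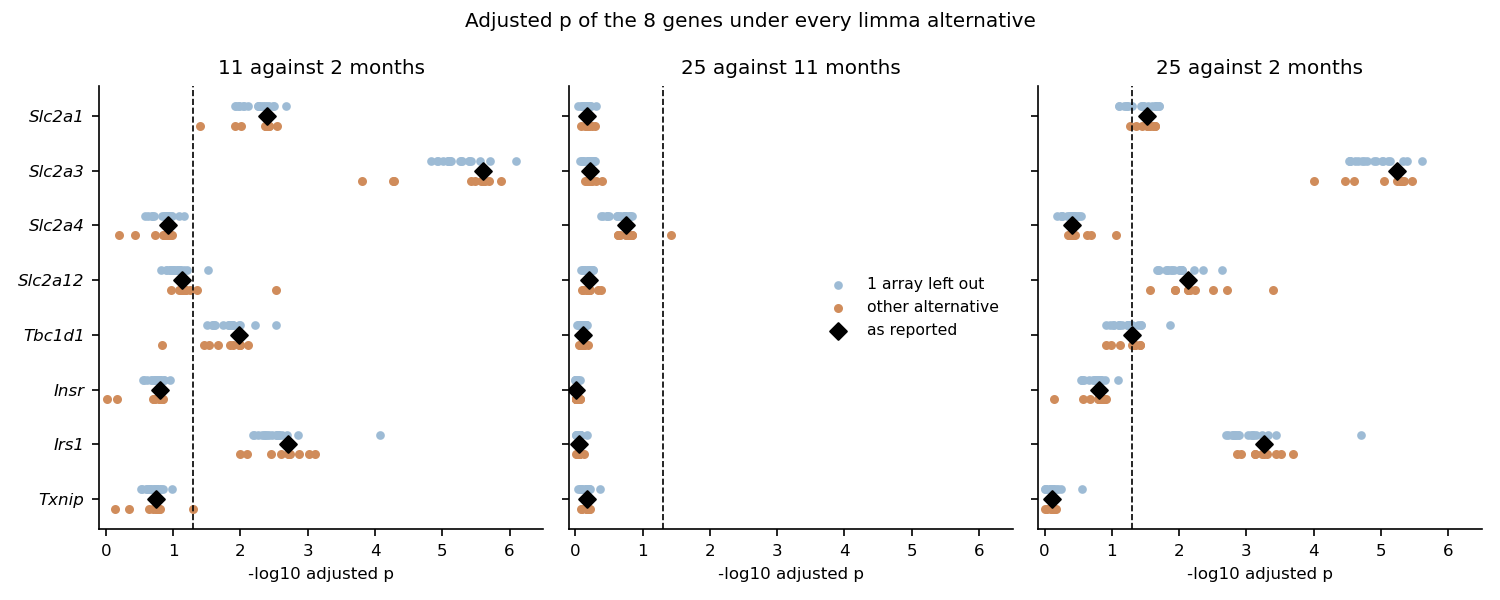
Minus log10 of the limma adjusted p (horizontal axis) of the 8 measured genes in the 3 comparisons, as reported (black), with 1 array left out (blue) and under the other limma alternatives (orange); the dashed line marks 0.05. Slc2a3 and Irs1 stay to the right of the line in both comparisons with 2 months, while Slc2a1 and Tbc1d1 at 25 against 2 months fall on both sides of it.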

How the data were processed

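RNA of 18 gastrocnemius samples, 6 per age, was hybridised to Affymetrix whole-transcript arrays after ribosomal depletion, per the labels' protocols. The authors deposited linear intensity values for 15300 probesets on each array. Per the submitters' processing notes, Affymetrix Expression Console 1.2.1 with RMA and the build mm8 were used, and GeneSpring GX 14.9 appears in the series text. The steps behind the number of probesets are not given in the sources used here. RMA draws arrays to a common distribution, so a shift of the same size shared by most probesets cannot be seen. The deposited probesets were not on 1 distribution all the same: their mean signal range was 2.19, 2.33 and 2.26 log2 units at 2, 11 and 25 months. Of the probesets 13592 had 1 gene symbol, 941 several and 767 none.

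Log2 values were fitted with limma 3.58.1 in R 4.3.3 (1 mean per age, all 18 arrays, moderated statistics, Benjamini-Hochberg adjustment over all probesets, threshold 0.05). A gene with several probesets entered with its brightest. Summaries and figures used Python 3.11.15 with pandas 2.3.3, scipy 1.17.1 and matplotlib 3.10.9. Members, 7 pathway lists and 10 marker lists were chosen with earlier results of these data known, and lists are described by counts and medians only. All measured members are named; of each list up to 4 called genes per comparison and direction with the smallest adjusted p, or, where none was called, that with the smallest p; of likeness the 3 closest genes, predicted and clone names passed over. Promoter motifs were chosen after the sequences were seen. RefSeq sequences are on GRCm38.p6, another build than mm8, and are used for promoters only. The model was tested on simulated data for 11 against 2 months with 15300 probesets, 200 of them shifted: of these it called 72.6% where the shift was 1.25-fold, 94.6% where it was 1.5-fold and 99.9% where it was 2-fold, and 4.14% of its calls were false. The simulated noise was normal and drawn separately for each probeset, so variation shared by probesets, such as the signal range, was absent. In the real comparison 2919 probesets were called, far more than were shifted. These rates thus hold for the simulated setting and are no error rates of the calls reported here. The number of arrays limits the precision. Alternatives were other normalizations, filters, variance models, weights, a replicate block, the signal range as a covariate, subsets of arrays and the methods' one-way test with Tukey, in which the one-way p was adjusted over probesets and Tukey's p was not.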

Additional observations from a re-analysis of the deposited data

How the results depend on the processing

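The number of members called was 4 for 11 against 2 months (4 to 5 with 1 array left out), 0 for 25 against 11 months (0 with any array left out) and 4 for 25 against 2 months (3 to 5). Array weights gave 1 for 25 against 11 months, and so did the one-way test with Tukey, Slc2a4 in both. By the F statistic it was 6 (5 to 6 with 1 array left out), and 3 at a threshold of 0.01, which left out Slc2a4, Slc2a12 and Tbc1d1. Slc2a4 lost its F call as well after median centring (adjusted p = 0.0566), with a signal range term (0.0817), and without 2 months replicate 2 or 6, 11 months replicate 2, 5 or 6, or 25 months replicate 2, 3 or 6 (0.0521 to 0.102). A called member changed sign under no alternative. Replicate numbers were not taken as pairs: deviations of same-numbered arrays from their age means correlated by over 0.1 in 7 of 18 pairs, from -0.33 to 0.42. No model had a term for the split of Insr and Txnip between replicates 1 to 3 and 4 to 6 alone. The replicate block, which fits each replicate number, takes up any part of that split shared by the ages. Under it neither gene was called by the F statistic (adjusted p = 0.184 for Insr and 0.281 for Txnip). With the replicate block the members called were 4, 0 and 4 in the 3 comparisons and 5 by the F statistic, where Slc2a4 was lost (adjusted p = 0.0535). Over all probesets, calls for 11 against 2 months were 2919 as reported, 959 with the signal range as a covariate, 1256 at a threshold of 0.01 and 1895 without 11 months replicate 5; for 25 against 2 months they were 2666, and 1419 at 0.01; by the F statistic 2936, and 1484 at 0.01. For 25 against 11 months they were 23, against 3 at 0.01, 185 with array weights, 6 with the replicate block, 45 with only these ages fitted, 8 with 1 probeset per gene, 37 with the signal range, 461 by the one-way test with Tukey, and 3 to 33 with 1 array left out. In the pathway lists, the call of Pdk4 at 25 against 2 months was lost under the signal range term and under the block, each leaving 1 gene of its list. Of the marker lists, calls at 11 against 2 months moved for adipocytes (5, against 1 with the signal range as a covariate), endothelium (3, against 5 after quantile normalization), macrophages (2, against 0 with the signal range) and red cells (1, against 0 to 2). No other probeset was annotated to a member alone, so the alternative of another probeset could not be run. The cause of these differences was not tested.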

Other observations

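Arrays with replicate numbers 1, 2 and 3 stood apart from those with numbers 4, 5 and 6 for some of the 8 genes, which was noticed after the values were seen and was not tested. Insr read 9.21, 9.19 and 9.20 log2 units in replicates 1, 2 and 3 and 9.12, 9.18 and 9.17 in replicates 4, 5 and 6 at 2 months. At 11 months it read 9.27, 9.36 and 9.31, then 9.24, 9.25 and 9.17, and at 25 months 9.33, 9.33 and 9.36, then 9.21, 9.17 and 9.24. The first 3 numbers were thus above the others for Insr at every age.

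Txnip had the same order at 11 months (12.00, 12.00 and 12.09, then 11.86, 11.95 and 11.91) and at 25 months (12.13, 12.04 and 12.06, then 11.43, 11.67 and 11.72), but not at 2 months (11.74, 11.66 and 11.92, then 11.88, 11.73 and 11.81). Tbc1d1 and Irs1 had the opposite order at 11 months, with replicates 1, 2 and 3 all below the others, and overlapped at 2 and 25 months. The 4 transporters overlapped between these numbers at all ages. The labels give no batch for these arrays.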
